A study of Mus musculus with 6 samples.

Results

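Chromatin accessibility along the distal part of chromosome 12 was examined in mouse embryonic stem cells of the line E14TG2a by ATAC-seq, a method in which Tn5 transposase inserts sequencing adapters into accessible DNA. Peaks sharing 1 bp or more across the 6 libraries were joined, which gave 259376 regions. The distal segment holds the regions on chromosome 12 with a midpoint from 52 to 120 Mb (GRCm39), which were 7239 of them (2.79%). The 4000 regions of the same chromosome with a midpoint below 52 Mb, called proximal here, served for comparison. The segment was chosen by the height of its summits, which were lower in del-cIDR than in WT cells in these same libraries. Every value that sets del-cIDR against WT, or del-cIDR against KO, is therefore a description and carries no test. KO against WT did not choose the segment and was tested.

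The groups were Alkbh5 del-cIDR, Alkbh5 KO and WT, with 2 libraries each. The KO cells carry an Alkbh5 knockout, and the del-cIDR cells an allele of the same gene labelled as a deletion of the cIDR (in the study's title, IDR means intrinsically disordered region). Culture was the same for all groups: 15% serum with LIF at 1000 U/ml, the MEK blocker PD0325901 at 1 µM, and CHIR99021, which blocks GSK3, at 3 µM. Each library received 10 µl of spike-in nuclei. Nothing in the labels says how many clones stand behind a genotype or that the replicates are separate cultures. Genotype and line cannot be told apart, and the spread between replicates may be technical. The labelled cell type was not checked against its marker genes, because no gene annotation of GRCm39 was used.

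ALKBH5 is a demethylase that removes N6-methyladenosine from RNA. Intrinsically disordered regions are protein stretches without a fixed fold that often govern where a protein goes in the cell. Mouse chromosomes have their centromere near the end at which coordinates start, so the distal segment runs outward to the telomere. In textbook maps distal chromosome 12 carries the imprinted Dlk1-Meg3 domain with its large microRNA cluster, Esrrb, which encodes a nuclear receptor of the naive pluripotency network, and the immunoglobulin heavy chain genes near the telomere. No gene was assigned to a region here.

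The height of a summit, in tags, was solved from the deposited fold and p of each peak and came out whole for every peak. The lists held 150680 to 193905 mouse peaks, and the background of a library was 1.01 to 1.26 tags. Depth relative to WT replicate 1 was 0.975 and 0.959 in del-cIDR, 1.096 and 0.820 in KO, and 1.096 in WT replicate 2. Both WT lists were the longest.

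The segment is covered densely from end to end. Its regions ran from position 52000905 to 119992629, at 106 regions per Mb, against 81.8 per Mb in the proximal part. Median region width was 317 bp in the distal and 298 bp in the proximal part, and 315 bp over all regions. All 6 libraries had 2709 of the 7239 distal regions (37.4%), against 1372 of the 4000 proximal regions (34.3%) and 38.3% of all regions. Between those extremes, 879, 589, 572 and 681 distal regions were called in 2, 3, 4 and 5 libraries, and 1809 in 1 library. The 1809 were 24.99% of the distal regions, close to the 25.18% of all regions and 26.3% of the proximal regions. For 2 to 5 libraries no share over all regions is given here, so those counts cannot be set against the genome.

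Fewer peaks of the del-cIDR lists lay in the segment. The distal segment held 4214 and 4120 peaks in the del-cIDR libraries, 4658 and 4232 in the KO libraries, and 5540 and 5327 in the WT libraries. As a share of each list this was 2.67% (95% Wilson interval 2.59 to 2.75) and 2.66% (2.58 to 2.74) in del-cIDR, 2.83% (2.75 to 2.91) and 2.81% (2.73 to 2.89) in KO, and 2.86% (2.78 to 2.93) and 2.88% (2.81 to 2.96) in WT. Both del-cIDR shares were below all 4 others. The intervals cover the counting error of each share only and compare no groups. In bulk libraries, fewer cells with open chromatin and less opening per cell cannot be told apart. Whether the genotypes hold the same amount of DNA of the segment was not tested.

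The proximal part did not show this order. Its share of the list was 1.515% ± 0.0025 in del-cIDR, 1.44% ± 0.0066 in KO and 1.51% ± 0.0033 in WT (SD, n = 2). Of all chromosome 12 peaks, 63.7% ± 0.038 were distal in del-cIDR, 66.2% ± 0.22 in KO and 65.6% ± 0.085 in WT (SD, n = 2). For KO against WT, the exact two-sided permutation test of the distal share of the list gave p = 0.333, the smallest that 2 against 2 libraries allow, for a mean of 2.82% ± 0.015 in KO and 2.87% ± 0.017 in WT (SD, n = 2). The KO share was lower in 2 of 2 libraries. No difference, whatever its size, can give a smaller p in this design.

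Heights were compared over the 2709 distal and 1372 proximal regions called in all 6 libraries, which leaves out every region that a library lacked. The median distal summit was 29 and 28 tags in del-cIDR, 33 and 26 in KO, and 32 and 36 in WT. To remove depth, each list was scaled to the median height of 16 reference autosomes (all except 6, 8 and 11, on which heights differed between the genotypes). On the log2 scale the distal level was -0.14 and -0.15 in the del-cIDR libraries, 0.00 and 0.06 in the KO libraries, and 0.00 in both WT libraries. Both del-cIDR libraries lay below the other 4, by 0.14 against WT (-0.14 ± 0.003, SD, n = 2 each) and by 0.17 against KO (-0.17 ± 0.040). Heights are whole tags, and 1 tag at the distal median is worth 0.04 to 0.05 log2, so the agreement of replicates to 2 decimals is partly that of rounding.

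Proximal heights did not separate del-cIDR from WT. The proximal level was -0.09 and -0.07 in del-cIDR, -0.14 and -0.12 in KO, and -0.07 and -0.08 in WT, a del-cIDR difference from WT of -0.01 ± 0.018 (SD, n = 2 each). Distal minus proximal was -0.06 ± 0.019 in del-cIDR, 0.16 ± 0.028 in KO and 0.08 ± 0.009 in WT (SD, n = 2 each). The distal median was thus the lower of the 2 parts in del-cIDR and the higher in KO and WT. KO distal levels differed from WT by 0.03 ± 0.040 (exact two-sided permutation p = 1, n = 2 each), with 1 of 2 KO libraries above WT. That difference turned to -0.027 when all 19 autosomes served as reference (exact permutation p = 0.667).

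**Figure D1:**
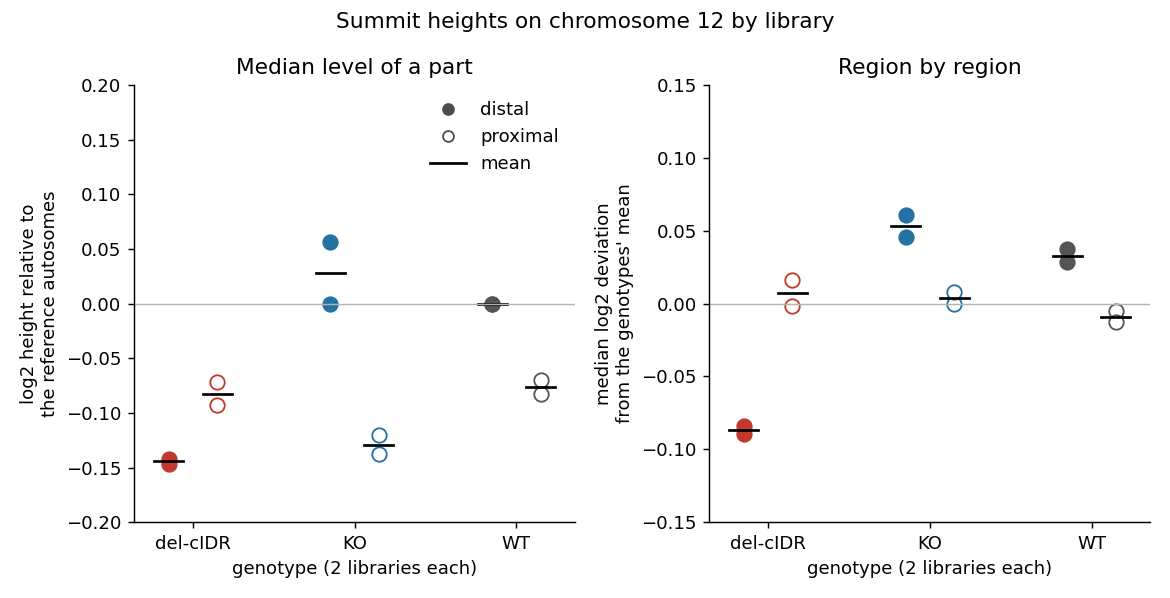
Heights on chromosome 12 in the 6 libraries, over 2709 distal (filled) and 1372 proximal (open) regions, on the log2 scale. Left, the median level of a part relative to the reference autosomes of the same list, and right, the median deviation of a region from its own mean over the genotypes. Points are libraries and bars are means. The del-cIDR distal points (-0.14 and -0.15 on the left, -0.08 and -0.09 on the right) lie below all other distal points.

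Each region was then set against its own mean over the 3 genotypes, with the reference autosomes centred on 0. The distal median of this deviation was -0.08 and -0.09 in del-cIDR, 0.05 and 0.06 in KO, and 0.03 and 0.04 in WT. That places del-cIDR 0.12 below WT (-0.12 ± 0.007) and 0.14 below KO (-0.14 ± 0.011, SD, n = 2 each). In linear terms the median distal region stood in del-cIDR at 0.922 times its WT height. Single regions spread widely around it, with quartiles of -0.31 and 0.06 log2. KO was 0.02 ± 0.012 above WT, higher in 2 of 2 libraries (exact two-sided permutation p = 0.333, the smallest possible). Distal minus proximal, KO differed from WT by 0.08 ± 0.029 with the median levels and by 0.01 ± 0.012 with this measure (exact permutation p = 0.333 and 0.667).

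The displacement was spread over many regions. In 1816 of 2709 distal regions (67.0%) the del-cIDR mean was below the WT mean, against 642 of 1372 proximal regions (46.8%) and 49.1% on the reference autosomes. Both del-cIDR heights were below both WT heights in 922 distal regions (34.0%), where the share over all 99146 regions is 22.6%. Both were above in 308 (11.4%), where the share over all regions is also 22.6%. These counts rest on the contrast that chose the segment and add no evidence for it. For KO, 737 distal regions (27.2%) had both heights below both WT heights and 826 (30.5%) above, with 26.2% and 33.1% over all regions. The share above over all regions includes chromosomes 6 and 8, where it was 59.0% and 57.8%. On the reference autosomes the shares were 28.8% below and 28.9% above. KO counts stayed within a few percent of either background, slightly to opposite sides of them.

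Tall and low summits differed alike. In del-cIDR against WT, less the reference autosomes of the same height, the distal median was -0.11 for the 720 regions under 20 tags, -0.11 for 1253 regions of 20 to 50 tags, -0.12 for 514 regions of 50 to 100 tags and -0.14 for 222 regions of 100 tags and more. Proximal regions in the same classes were at 0.00, 0.02, 0.01 and 0.03. By width, the distal median was -0.14 for 632 regions under 400 bp, -0.12 for 1476 of 400 to 800 bp and -0.12 for 601 of 800 bp and more. No class of height or width carried the difference alone. KO in the height classes lay at 0.03 to 0.05 in the distal and 0.00 to 0.05 in the proximal part.

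**Figure D2:**
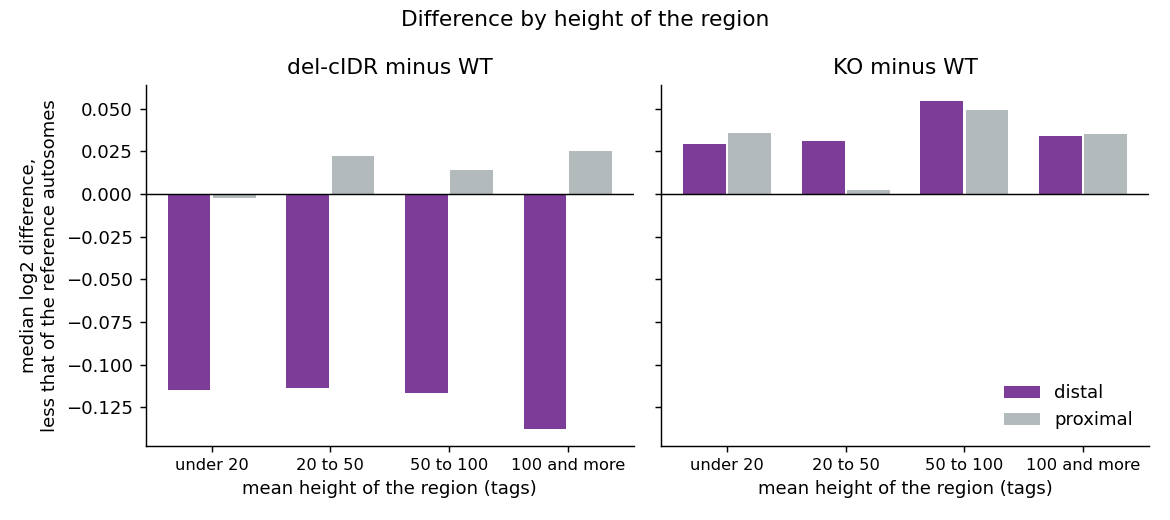
Median log2 difference in height from WT by mean height of the region in tags, less that of the reference autosomes of the same class, for del-cIDR (left) and KO (right). Distal bars are purple and proximal bars grey. The del-cIDR distal bars run from -0.11 to -0.14, while every proximal bar and every KO bar lies between 0.00 and 0.05.

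The local background of the peak caller was lower to the same extent in regions where it exceeded the library minimum. The caller estimates this background around each peak, and it was solved from the same deposited values. In 1789 distal regions where it exceeded the library minimum in all 6 libraries, it lay 0.13 log2 lower in del-cIDR than in WT (-0.13 ± 0.005), beside -0.13 ± 0.004 for the summits of the same regions (SD, n = 2 each). The deviation of the background was -0.09 in both del-cIDR libraries, 0.06 in both KO libraries, and 0.03 and 0.04 in WT. Height over background differed far less, at 0.007 ± 0.003 for del-cIDR minus WT (SD, n = 2 each). Its deviation was 0.005 and 0.009 in del-cIDR, -0.019 and -0.005 in KO, and 0.0009 and -0.0005 in WT, so that both del-cIDR libraries lay slightly above the other 4. Summit and local background were thus lower by nearly the same amount in these regions.

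The deposited fold is a ratio of the same kind, with 1 added to height and background. With the fold in place of the height, the distal level in del-cIDR was -0.012 ± 0.010 relative to WT over all 2709 regions (SD, n = 2 each). Region by region in the 1789 regions it was -0.021 ± 0.0007, with both del-cIDR libraries below the other 4, the opposite side from the ratio without the added 1. In 439 distal regions whose background sat at the library minimum in all 6 libraries, del-cIDR minus WT was -0.07 ± 0.038 for the height, -0.07 ± 0.037 for height over background and -0.06 ± 0.035 for the fold (SD, n = 2 each). There the background is nearly constant within each library by the choice of regions, so the ratios had to follow the height. The difference in height was itself smaller than in the other regions. In the proximal part, 802 regions above the minimum gave 0.02 ± 0.009 for the background and 0.01 ± 0.008 for the height. Without a control library, of which the labels name none, MACS2 takes this background from reads around and including the peak, so it is not separate from the height.

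**Figure D3:**
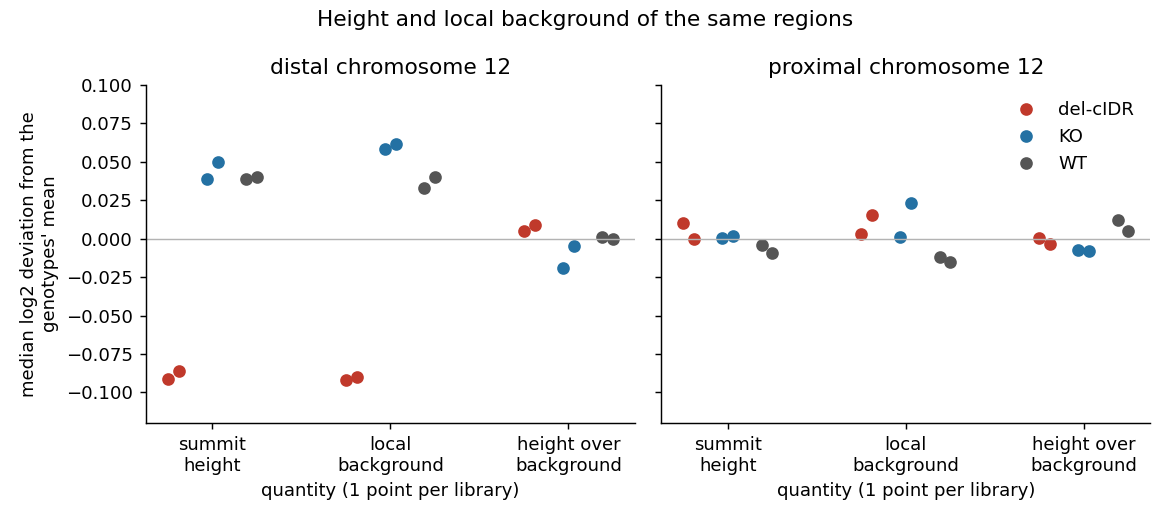
Summit height, local background and their ratio in the same regions (1789 distal, left, and 802 proximal, right), as the median log2 deviation from the mean of the genotypes, with 1 point per library. The distal del-cIDR points lie at -0.09 for height and for background and near 0 for the ratio.

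Along the segment the lower heights reached to the telomeric end. In bins of 1 Mb with at least 5 regions, 64 of 67 distal bins had a del-cIDR median below WT, and in 57 (85.1%) each del-cIDR library was below the WT mean. In the proximal part this held for both libraries in 11 of 48 bins (22.9%), and on the 15 other reference autosomes in 519 of 1814 bins (28.6%). Distal bins ran from -0.34 to 0.06 with a median of -0.12. KO was below WT in 26 of the 67 distal bins and WT replicate 2 below WT replicate 1 in 23.

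The deepest bins were narrow in content. The lowest was the bin from 89 to 90 Mb, at -0.34 with 16 regions, followed by 60 to 61 Mb, at -0.28 with 6 regions. The bins above WT were 56 to 57 Mb (0.01, 29 regions), 78 to 79 Mb (0.03, 22 regions) and 96 to 97 Mb (0.06, 8 regions). In all of these bins above WT, del-cIDR replicate 2 was itself below the WT mean (-0.04, -0.13 and -0.11) and replicate 1 above it (0.06, 0.01 and 0.12).

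In stretches of 17 Mb, the del-cIDR difference from WT was -0.07 over 382 regions from 52 to 69 Mb, -0.12 over 970 regions from 69 to 86 Mb, -0.13 over 523 regions from 86 to 103 Mb and -0.12 over 834 regions from 103 to 120 Mb. The first of these thus held the smallest difference in each library (-0.09 and -0.08, against -0.10 to -0.14 in the other 3). KO differed from WT by 0.00 to 0.03 across them.

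**Figure D4:**
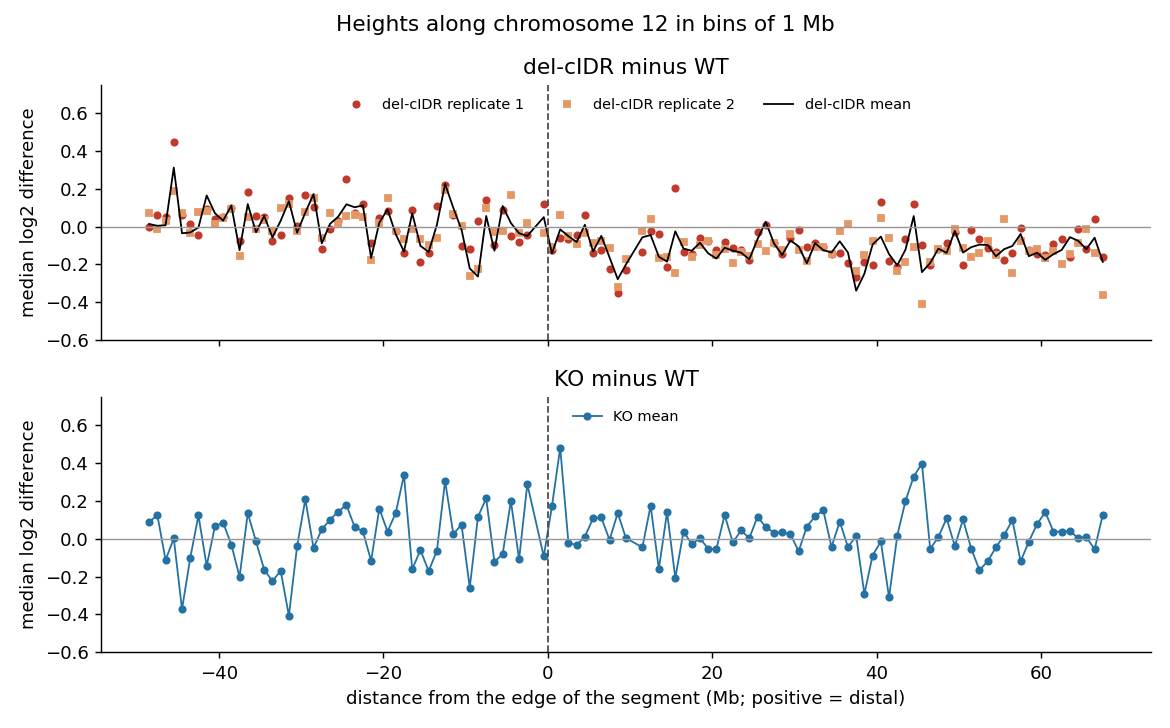
Median log2 difference in height from WT in bins of 1 Mb along chromosome 12 (bins of at least 5 regions), against the distance from the edge of the segment in Mb, negative in the proximal and positive in the distal part. Top, del-cIDR with each replicate and the genotype mean, and bottom, KO. In del-cIDR 64 of 67 distal bins lie below 0, against 19 of 48 proximal bins.

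The edge was not sharp. In blocks of 4 Mb, del-cIDR differed from WT by -0.02 from 44 to 48 Mb and -0.01 from 48 to 52 Mb, then by -0.07 from 52 to 56 Mb, -0.05 from 56 to 60 Mb, -0.14 from 60 to 64 Mb, with only 34 regions, and -0.07 from 64 to 68 Mb. From 68 Mb on, every block lay between -0.10 and -0.15. The least squares split of single regions put the edge at 54.6 Mb for del-cIDR against WT, with means of -0.13 on its distal and 0.00 on its proximal side. A cut at 52 Mb kept 98.2% of the sum of squares that the best cut explains, and cuts at 54, 56 and 60 Mb kept 93.9%, 94.7% and 92.1%. The lowest cut that kept at least 95% was at 51.4 Mb and the highest at 59.1 Mb, with cuts between them that kept less. A cut at 40 Mb still kept 81.4%, so the sum of squares had no single narrow peak.

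Single libraries gave positions within the same range, and binned values did not. The split fell at 57.1 Mb for del-cIDR replicate 1 and at 54.6 Mb for replicate 2, each against the WT mean, and from 52.01 to 57.0 Mb with single WT libraries. On medians of 1 Mb bins, which weight sparse and dense bins alike, it moved to 42 Mb. The del-cIDR split explained 4.20% of the variation between regions. The best split of KO against WT explained 0.569%, lay at 24.5 Mb and went the other way (0.09 higher on its distal side), and that of WT replicate 2 against WT replicate 1 explained 0.227%.

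Among regions called in all 6 libraries, the 3 nearest to 52 Mb on each side did not line up by side. Just inside, the region from 52002681 to 52002998 had 23 and 21 tags in del-cIDR, 25 and 20 in KO, and 21 and 29 in WT. The next, from 52010234 to 52010515, had 21 and 16 tags in del-cIDR, 22 and 13 in KO, and 23 and 25 in WT. The third, from 52017621 to 52018412, had 103 in both del-cIDR libraries, 141 and 105 in KO, and 98 and 96 in WT. The scaled del-cIDR difference from WT was -0.08, -0.30 and 0.18 in these, so the third lay above WT. Just outside, from 51991946 to 51992774, counts were 55 and 41 tags in del-cIDR, 57 and 43 in KO, and 41 and 36 in WT. The regions from 51924077 to 51924434 and from 51912510 to 51913051 followed, with scaled differences of -0.20 and 0.25, against 0.40 for the nearest one.

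Every autosome was split at the same 52 Mb. That cut was placed from the del-cIDR and WT heights of chromosome 12 and is arbitrary elsewhere, so the comparison favours chromosome 12. The 2 parts also need not cover a longer chromosome (on chromosome 8, 2935 distal and 1967 proximal of 5667 regions). Distal minus proximal, del-cIDR minus WT was -0.14 on chromosome 12 in the mean and in each del-cIDR library. On the 18 other autosomes the value ran from -0.04 (chromosome 17) to 0.04 (chromosome 15), with a median of -0.01. For KO minus WT, chromosome 12 gave 0.00 within a range from -0.28 (chromosome 11) to 0.05 (chromosome 15). In level, without the subtraction, distal chromosome 12 in del-cIDR (-0.12) lay near chromosomes 6 and 8, whose regions as a whole were at -0.09 and -0.14 relative to WT. Those chromosomes were at 0.36 and 0.33 in KO, where distal chromosome 12 was at 0.02.

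**Figure D5:**
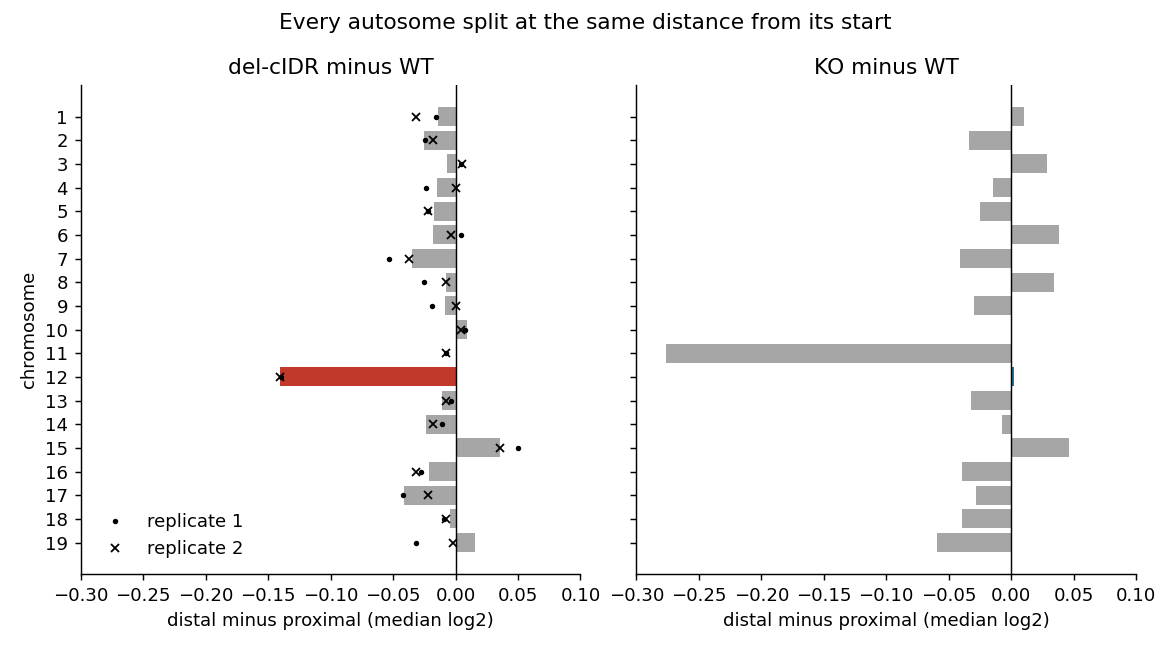
Distal minus proximal difference (median log2 height, mutant minus WT) for each autosome cut at the same distance from its start, for del-cIDR (left, with each replicate as a dot or cross) and KO (right). The distance was placed from del-cIDR and WT heights on chromosome 12. Chromosome 12 stands at -0.14 in del-cIDR, where the other 18 autosomes run from -0.04 to 0.04, and at 0.00 in KO, where chromosome 11 reaches -0.28.

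Calls followed the heights. Of 4291 distal regions called in both WT libraries, 499 (11.6%) were in neither del-cIDR library, against 196 of 2217 proximal regions (8.84%) and a share over all regions of 9.2%. In the other direction, 40 of 3355 distal regions called in both del-cIDR libraries were in neither WT library (1.19%), against 44 of 1857 proximal regions (2.37%) and 1.92% over all regions. When every list was cut to equal length, the distal counts were 244 (6.74%, against 4.95% over all regions) and 117 (3.54%, against 4.59%). The order of the segment and the rest was the same at either list length.

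KO calls in the segment stayed close to the genome. Both WT libraries and neither KO library had 520 of 4291 distal regions (12.1%), where the share over all regions is 12.5% and the proximal share 15.2%. Both KO libraries and neither WT library had 117 of 3474 (3.37%), where the share over all regions is 3.96%. Between the mutants, del-cIDR without KO held 194 of 3355 distal regions (5.78%, with 7.38% over all regions and 10.2% in the proximal part), and KO without del-cIDR held 280 of 3474 (8.06%, with 7.32% over all and 7.06% proximal).

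Most regions that were missing in del-cIDR were low in WT. The 499 had a median of 11.5 tags in WT, and 249 of them were called in no KO library, 135 in 1 and 115 in both. Of the distal regions called in both WT libraries with 10 to 15 tags, 214 of 789 (27.1%) were in neither del-cIDR library, against 17.5% of the proximal and 19.9% of all regions of that height. At 15 to 20 tags the shares were 10.8% distal, 7.21% proximal and 8.86% of all, and at 20 tags and more 2.04%, 1.35% and 1.70%. In each of these height classes the distal share was the highest of the 3. In KO the distal share took no fixed place, with 41.0% distal, 36.3% proximal and 39.8% of all at 8 to 10 tags, where it was the highest, and 23.8% distal, 28.8% proximal and 26.7% of all at 10 to 15 tags, where it was the lowest. At 15 tags and more it was below both others, and under 8 tags it lay between them.

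The 10 tallest regions of the segment scattered around their WT height. Their mean over 6 libraries ran from 263 to 687 tags, and del-cIDR minus WT was between -0.15 and 0.22, below 0 in 7 of 10. KO minus WT was above 0 in all 10, at 0.07 to 0.41. The tallest, from 78397643 to 78397947, had 724 and 759 tags in del-cIDR, 692 and 590 in KO, and 636 and 719 in WT. It was 305 bp wide, while the median of the 10 was 974 bp. The median of the 10 was -0.02 in del-cIDR and 0.29 in KO. On the reference autosomes, very tall summits were relatively higher than WT in del-cIDR (0.09 for 100 tags and more) and in KO (0.20). Less that reference value, the 222 distal regions of 100 tags and more were at -0.14 in del-cIDR and 0.03 in KO.

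Single regions went further than the segment as a whole. Among 1989 distal regions of at least 20 tags, both del-cIDR heights lay below both WT heights in 726 and above in 216. The proximal counts among 973 such regions were 188 and 271. Over all 99146 regions of any height the share is 22.6% in each direction, and none was computed for 20 tags or more. The counts come from the contrast that chose the segment. The largest difference downward was from 77103487 to 77104160, with 9 and 14 tags in del-cIDR, 16 and 19 in KO, and 40 and 34 in WT. It was -1.62 log2 in del-cIDR and -0.93 in KO, so both mutants lay below WT. The region from 69493076 to 69493812 had 21 and 17 tags in del-cIDR, 56 and 46 in KO, and 38 and 47 in WT, and was thus low in del-cIDR alone. The region from 110251205 to 110251608 had 22 and 17 tags in del-cIDR, 19 and 10 in KO, and 45 and 38 in WT. The remaining 3 of the 6 largest differences downward were -1.03 to -1.29 in del-cIDR.

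The largest differences upward included 3 regions within 68.6 kb. The region from 109493301 to 109493751 had 91 and 88 tags in del-cIDR, 39 and 31 in KO, and 62 and 71 in WT. The del-cIDR libraries were the highest there and the KO libraries the lowest, with no overlap between the genotypes. The region from 109504893 to 109505297 had 50 and 54 tags in del-cIDR, 47 and 27 in KO, and 31 and 43 in WT. The region from 109561313 to 109561875 had 52 in both del-cIDR libraries, 48 and 44 in KO, and 30 and 43 in WT, with both mutants above WT.

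This stretch, singled out after its values were seen, held 17 regions, of which 8 were called in all 6 libraries. Their median del-cIDR difference from WT was 0.19, above 0 in 6 of 8, within a segment whose median was -0.12. The 8 include the 3 regions picked for their rise, which also set the ends of the stretch, so both values are raised by that choice. The remaining regions were at 0.28, -0.13, -0.10, 0.01 and 0.09. The stretch also held a taller summit, from 109508646 to 109509142, with 120 and 117 tags in del-cIDR, 108 and 98 in KO, and 125 and 147 in WT. That summit lay below WT in both mutants. The other 3 of the 6 largest differences upward were 0.56 to 0.72, and that from 105633716 to 105634312, had 40 and 45 tags in del-cIDR, 12 and 9 in KO, and 34 and 24 in WT.

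The highest regions missing from the del-cIDR lists were short. The highest distal region in both WT libraries and neither del-cIDR library, from 109913499 to 109913628, had no call in del-cIDR, 46 tags in KO replicate 1, and 58 and 50 tags in WT. It was 130 bp wide, and all 6 of the highest such regions contained a peak under 150 bp, where the median narrowest peak of a distal region was 167 bp. So did 5 of the 6 highest regions of del-cIDR not WT, and 4 of 6 each of KO not WT and WT not KO. The narrowest peak of a whole list was 123 and 125 bp in del-cIDR, 121 and 130 bp in KO, and 114 and 113 bp in WT. The narrowest peak of the 130 bp region, at 114 bp, was thus shorter than any in the del-cIDR lists. Whether peak length decides these calls was not tested. Regions from 80994187 to 80994325 (39 and 51 tags in WT) and from 76419800 to 76419934 (37 and 44 tags in WT) had a call in no mutant library. The region from 100570893 to 100571075 had no call in del-cIDR, 55 and 38 tags in KO, and 44 and 50 in WT.

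Of the calls gained in the mutants, those of del-cIDR were low and the highest of KO was not. The highest in del-cIDR and not WT, from 72779934 to 72780424, had 22 and 28 tags in del-cIDR and 21 in KO replicate 2. The region from 80109135 to 80109324 had 22 and 17 tags in del-cIDR and no call in KO or WT. In KO and not WT, the highest region ran from 109917152 to 109917550, with 55 and 49 tags in KO and no call in del-cIDR or WT. It lay beside a region called in del-cIDR (37 and 53 tags) and WT (53 and 59 tags) but not in KO, from 109916098 to 109916350. Together with the 130 bp region above, these 3 calls fell within 4.05 kb around a summit that all libraries had, from 109914474 to 109915591, with 167 and 158 tags in del-cIDR, 206 and 161 in KO, and 187 and 204 in WT. All 3 calls were named for patterns that differ between genotypes, so that difference was fixed by the choice. The 130 bp region also divided the KO libraries, with a call in replicate 1 only.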

How the data were processed

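Each library has its own deposited peak list. Per the submitters' processing notes, the tools were MACS2, BWA, featureCounts, fastp, Picard and SAMtools and the build was GRCm39. Versions, settings and any shift of reads to the cut site: not given in the sources used here. The deposited fold is a ratio of summit pileup to local background, significance was deposited as −log10 of p and of q (no q above 0.05), and the deposited score is 10 times the −log10 q rounded down in 99.94% to 99.97% of the peaks of a list. Read totals were not analysed here.

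Height n and background were solved from fold = (n + 1)/(background + 1) and the Poisson tail. The solution was whole within 0.1 tags in 100% of the peaks, and the method was tested on simulated data. Peaks on dm, read as the spike-in genome, were left out. Relative depth is the background divided by the narrowest peak. Groups and replicate numbers came from the sample titles. KO and WT were compared by exact two-sided permutation of libraries, and no test was run over regions. Alternatives were another reference set, fold, peak mean, a minimum of 20 tags, other region sets, a 50 bp overlap, edges at 48 and 56 Mb, means, −log10 q of at least 5, lists of equal length (150680 peaks), each library left out and a replicate block. The measure region by region, the background, the classes of height and width, the 17 Mb stretches and both short stretches were chosen after seeing the data. The members, groupings and named regions were chosen with earlier results of these data known. Named were the 10 tallest regions, the 6 highest of each calling pattern against WT, the 6 largest differences each way without overlap between del-cIDR and WT at 20 tags or more, and 3 regions at each side of the edge. The text gives values for part of these. Planned gene lists, sequence content and motifs were not analysed here, since no genome or annotation of this build was used. Python 3.11.15, pandas 2.3.3, NumPy 2.4.6, SciPy 1.17.1 and statsmodels 0.14.6 were used.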

Additional observations from a re-analysis of the deposited data

How the results depend on the processing

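The del-cIDR difference from WT on the distal segment (-0.14) had the same sign under every alternative run, but its size moved in 12 of 16. No alternative gave a larger difference than -0.14. It was -0.12 without chromosome 12 in the reference, -0.10 with all 19 autosomes, -0.10 with the mean over the peaks of a region, -0.11 at 20 tags or more, -0.083 over regions called in the 4 libraries compared, -0.11 as a mean, -0.12 region by region and -0.012 with the deposited fold, whose divisor moves with the height. Distal minus proximal (-0.14) became -0.10 over regions of the 4 libraries and -0.0080 with the fold. Against KO (-0.17), del-cIDR was at -0.073 with all autosomes, -0.050 with the fold, -0.12 with peak means, -0.13 at 20 tags or more and -0.12 over the 4 libraries. Distal minus proximal against KO (-0.22) was -0.052 with the fold, -0.18 with peak means, -0.17 at 20 tags or more, -0.15 as a mean and -0.14 region by region. KO minus WT turned to -0.027 with all autosomes. The causes of these moves were not tested.

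Leaving out 1 library gave -0.12 to -0.11 for del-cIDR minus WT, -0.15 to -0.12 for del-cIDR minus KO and 0.00 to 0.04 for KO minus WT. For distal minus proximal it gave -0.14 to -0.10, -0.24 to -0.18 and 0.04 to 0.10. The set of regions called in every library kept changes too. The full distal values for del-cIDR, -0.14 against WT and -0.17 against KO, lie outside their ranges. Same-numbered libraries did not deviate together (correlations -0.011, -0.0006 and 0.007), and the replicate block left the means as they were (KO minus WT 0.03, exact sign-flip p = 1; del-cIDR minus WT -0.14).

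Counts of calls moved with list length. With equal lists, del-cIDR not WT had 117 (3.54%, against 4.59% over all regions) and WT not del-cIDR 244 (6.74%, against 4.95%). KO not WT had 239 (7.01%, against 7.50% over all regions) and WT not KO 283 (7.82%, against 8.40%). Both KO shares thus lay near those over all regions. At −log10 q of at least 5, KO not WT had 73. Leaving out 1 library requires fewer calls and gave, for del-cIDR, 109 to 240 without WT and 306 to 508 without KO, for KO, 234 to 490 without WT and 484 to 845 without del-cIDR, and for WT, 797 to 1298 without del-cIDR and 721 to 1246 without KO. For the counts at −log10 q of at least 5 and with 1 library left out, no share over all regions is given here. Those counts cannot be set against the rest of the genome. The edge (54.6 Mb) lay at 42 Mb on bins, and at 57.0 and 52.01 Mb for del-cIDR replicates 1 and 2 against WT replicate 1. A region that is not called can still have tags.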
